A study of Mus musculus with 16 samples.

Results

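The Slc25 genes encode the mitochondrial carrier family, and they were taken here as every gene whose mouse symbol is Slc25a followed by a number. The rule found 47 genes among the 45513 in the count tables, all of them protein coding, on 19 chromosomes. RNA was measured in EpCAM+ epithelial cells of the mouse colon, sorted into tdTom+ and tdTom- fractions from each of 8 animals, which gave 8 libraries of each kind. All animals were Atoh1(WT)CreERT2; Rosa26tdTom/+ mice of C57BL/6 background, males and females 8 to 16 weeks old per the study's methods, homozygous for the Atoh1 allele and heterozygous for the reporter. Each received tamoxifen, at 1 mg daily for 3 days per the labels and per the study's methods on the secretory signature, while its general RNA-seq methods describe a single larger dose and collection a day later. Both fractions therefore shared genotype, treatment and animal, and were separated by the reporter. CreERT2 lies downstream of the Atoh1 coding sequence, so tdTom marks cells that expressed Atoh1, the transcription factor of the secretory lineage, during treatment, along with their progeny. The tdTom- fraction was all remaining EpCAM+ cells, not a single cell type, and the comparison asked which genes set the Atoh1-expressing cells apart.

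Mitochondrial carriers are small proteins of the inner mitochondrial membrane that move nucleotides, phosphate, carboxylic acids, amino acids, cofactors and fatty acyl-carnitines between the cytosol and the mitochondrial matrix. They decide which fuels reach the matrix and which products leave it, usually by exchanging one solute for another. In the colon, absorptive colonocytes are known for burning fatty acids such as butyrate, and goblet cells for making and secreting large amounts of mucin.

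Markers of goblet and absorptive cells separated the fractions, whose labels give only the reporter. All 8 goblet cell markers (Muc2, Tff3 and Spdef among them) were higher in tdTom+ cells, with a summed level of 51200 to 107000 counts scaled to library size (CPM) against 2260 to 8810 CPM in tdTom- cells, and all 8 absorptive markers were lower, at 586 to 876 CPM against 6350 to 12200 CPM. Also lower in tdTom+ cells were all 6 enteroendocrine and all 4 stem cell markers, 2 of 4 proliferation markers and 3 of 4 markers of tuft cells. Immune markers summed to 1.90 to 5.05 CPM in tdTom+ and 4.41 to 26.7 CPM in tdTom- samples, and stromal and endothelial markers to 4.84 to 11.5 and 7.68 to 20.1 CPM, with none at 0 in every sample. The part of these differences in the carrier results was not tested. In sorted bulk RNA, fewer cells of a type and less RNA per cell cannot be told apart. Totals ran from 16482530 to 45791503 counts per sample. The largest was the tdTom- library of mouse 4, and both libraries of that mouse had the lowest share of mitochondrially encoded RNA in their group (2.23% and 3.74%). That share was lower in the tdTom+ library in 8 of 8 mice (2.23% to 6.92% against 3.74% to 9.97%), and its part in the carrier results was not tested.

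The promoters of 4 members are shown because their genes gave the largest differences with a promoter entry, along with the opposite-moving paralog of the first. They are the 250 bases ahead of the RefSeq gene start in GRCm38.p6, written 5′ to 3′ on the gene's strand, for Slc25a12 (chr2:71367756-71368005, minus strand), Slc25a13 (chr6:6217174-6217423, minus strand), Slc25a20 (chr9:108661886-108662135, plus strand) and Slc25a10 (chr11:120491587-120491836, plus strand), with motif matches, read on either strand, in capitals.
Slc25a12: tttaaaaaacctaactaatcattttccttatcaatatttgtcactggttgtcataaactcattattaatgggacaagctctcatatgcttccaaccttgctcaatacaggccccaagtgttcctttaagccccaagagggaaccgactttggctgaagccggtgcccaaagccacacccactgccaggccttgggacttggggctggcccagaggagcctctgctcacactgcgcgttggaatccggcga
Slc25a13: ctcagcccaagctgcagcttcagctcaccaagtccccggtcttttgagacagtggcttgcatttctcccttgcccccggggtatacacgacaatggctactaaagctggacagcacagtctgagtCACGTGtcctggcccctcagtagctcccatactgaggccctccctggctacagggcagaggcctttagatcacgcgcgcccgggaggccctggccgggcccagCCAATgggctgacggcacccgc
Slc25a20: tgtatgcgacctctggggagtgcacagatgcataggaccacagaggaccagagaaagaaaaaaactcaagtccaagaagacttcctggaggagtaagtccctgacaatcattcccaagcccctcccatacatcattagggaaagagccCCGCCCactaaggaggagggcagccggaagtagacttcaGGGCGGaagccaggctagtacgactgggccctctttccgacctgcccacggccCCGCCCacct
Slc25a10: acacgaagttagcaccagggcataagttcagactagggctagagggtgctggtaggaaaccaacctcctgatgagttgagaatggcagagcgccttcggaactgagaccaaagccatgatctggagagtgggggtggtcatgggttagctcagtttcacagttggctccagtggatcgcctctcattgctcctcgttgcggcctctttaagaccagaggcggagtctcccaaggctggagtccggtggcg

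A set of 5 motifs was searched on both strands, and RefSeq promoter entries outside chromosome 18 matched 36 of the 47 members. Members on chromosome 18 were left out, while the set of all promoters was not filtered by chromosome. The E-box CAGCTG, of the kind bound by basic helix-loop-helix factors such as ATOH1, was present in 3 of the 36 (8.33%) against 12.8% of all 27025 promoters, and in none of the 4 shown. The GC box GGGCGG was present in 66.7% of member promoters against 32.9% of all, CCAAT in 44.4% against 34.5%, the E-box CACGTG in 16.7% against 6.05% and TATAAA in 2.78% against 13.0%. The median GC content of member promoters was 58.6% against 52% over all promoters. The set of all promoters was not filtered for protein-coding or expressed genes. Whether these differences are particular to the carriers was therefore not tested. The paralogs Slc25a12 and Slc25a13 differed in this window. That of Slc25a12 held none of these motifs and had 49.6% GC, while that of Slc25a13 held 1 CACGTG and 1 CCAAT and had 62.8% GC. The Slc25a20 window held 3 GC boxes and that of Slc25a10 held no match. A match describes letters only, and no match says nothing about binding.

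Of the 47 genes, 40 had enough counts to be tested between fractions, by the quasi-likelihood test of edgeR, with a threshold of 0.01 on the p-value adjusted by Benjamini-Hochberg over all 15841 genes tested. At that threshold 8 members were higher in tdTom+ cells, 13 were lower and 19 did not pass, a called share of 52.5% against 51.0% of all genes tested. The 8 higher members were 20% of those tested, against 25.5% of all genes, and the 13 lower members were 32.5%, also against 25.5%. The family as a whole was thus called about as often as any other gene. Only 4 called members differed by at least 1 on the log2 scale (10% of tested members against 16.7% of all genes), namely Slc25a12 and Slc25a35, which were higher, and Slc25a20 and Slc25a10, which were lower. In 15 members the 8 CPM values of a fraction did not overlap those of the other (37.5% against 30.5% of all genes), 5 of them higher and 10 lower in tdTom+ cells. The median log2 fold change of tested members was -0.06 and that of all genes 0.00, with median absolute values of 0.35 and 0.33. Of the 21 called members, 20 differed in the same direction in all 8 mice, the exception being Slc25a25 (7 of 8). A call at this threshold favours such agreement, so the count does not set the family apart. Titles number the mice in separate series, and among mice 1 to 3 alone 4 members were higher and 8 lower, while among mice 5 to 8 alone 7 were higher and 13 lower. Over all genes, 5105 were called in mice 1 to 3 and 6973 in mice 5 to 8, against 8074 in all mice. Slc25a12 was at 1.46 and 1.39 in these subsets, Slc25a35 at 1.11 and 1.08, Slc25a20 at -1.86 and -2.10 and Slc25a10 at -1.35 and -1.24, and each passed in both.

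**Figure D1:**
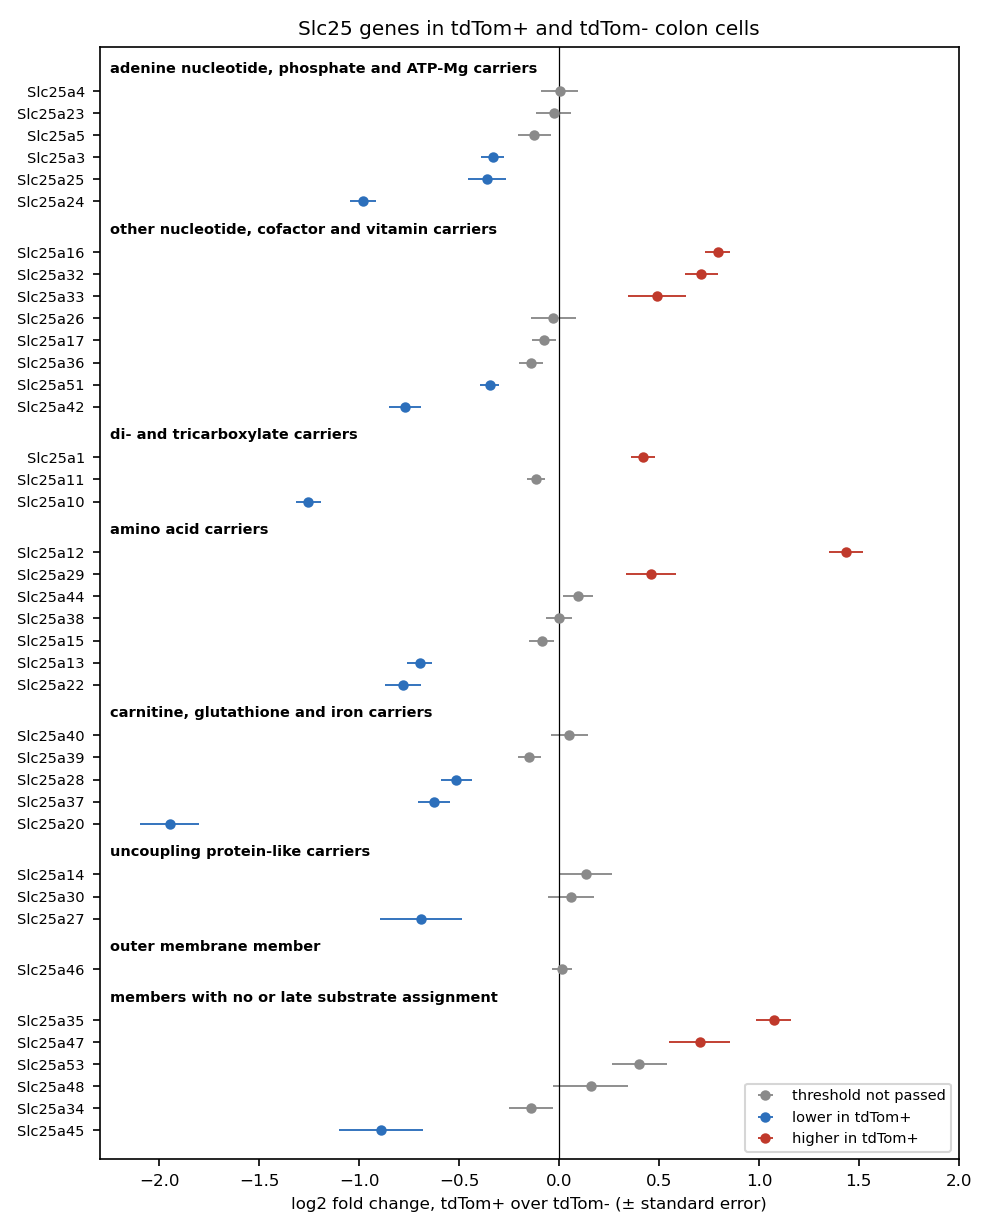
Log2 fold change (tdTom+ over tdTom-, horizontal axis, bars are standard errors) of 39 of the 40 tested Slc25 genes, arranged by the solutes they carry. Red marks the 8 genes higher in tdTom+ cells, blue the 13 lower and grey 18 that did not pass; Slc25a12 (1.44) and Slc25a20 (-1.95) lie at the ends.

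The 7 members outside the test were barely detected. Slc25a18, a glutamate carrier, had 0 counts in all 16 libraries, which allows at most 0.0655 to 0.182 CPM per library (3 counts over raw totals). Slc25a41 and Slc25a54 had 1 count each over all libraries, Slc25a31, the adenine nucleotide carrier best known from testis, 5 counts, Slc25a21, an oxodicarboxylate carrier, 13 counts, Slc25a2, an ornithine carrier, 36 counts and Slc25a43 110 counts. The least counted tested member, Slc25a27, had 573 counts.

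Levels were compared between members per length, as length-scaled shares of all transcripts (TPM) calculated from the counts and exon lengths. Slc25a5, the adenine nucleotide translocase that exchanges matrix ATP for cytosolic ADP, made up 49.4% ± 2.96 (SD, n = 8) of the family's TPM in tdTom+ cells and 46.8% ± 2.02 in tdTom- cells. Slc25a3, the phosphate carrier that supplies ATP synthase, followed at 8.91% ± 0.36 and 9.74% ± 0.55. The order then ran Slc25a39, Slc25a1 and Slc25a11 in tdTom+ cells (152 ± 26.2, 127 ± 25.5 and 87.6 ± 12.0 TPM), and Slc25a39, Slc25a24 and Slc25a10 in tdTom- cells (177 ± 25.4, 160 ± 21.8 and 136 ± 16.1 TPM). In each fraction Slc25a39 and the gene after it were within 1 SD of each other. Slc25a12 stood at rank 20 in tdTom+ cells and 31 in tdTom- cells, Slc25a20 at ranks 16 and 8. The sum over the family was 2411 ± 226 TPM (range 2124 to 2748) in tdTom+ cells and 2923 ± 257.8 TPM (2584 to 3301) in tdTom- cells, and was lower in tdTom+ cells in 8 of 8 mice. The ratio of the sums was 0.825 in TPM and 0.869 in reads per kilobase with TMM library sizes. Spread between mice was modest, with a median coefficient of variation of 10.4% in tdTom+ and 11.3% in tdTom- cells.

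**Figure D2:**
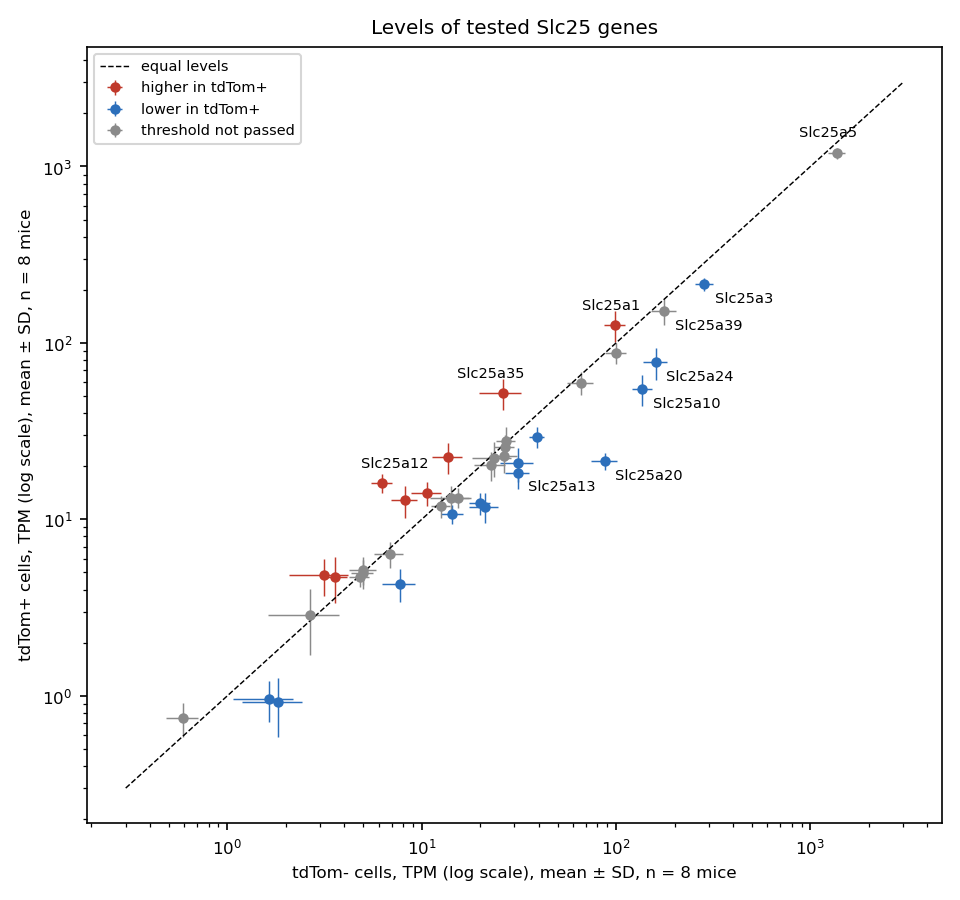
Mean TPM ± SD (n = 8 mice) of 39 of the 40 tested Slc25 genes in tdTom- cells (horizontal, log scale) and tdTom+ cells (vertical, log scale), with a dashed line of equal levels. Slc25a5 (1188 and 1369 TPM in tdTom+ and tdTom- cells) lies far above the rest; Slc25a12 and Slc25a35 lie above the line, and Slc25a20, Slc25a10 and Slc25a24 below it.

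The largest increase was that of an aspartate/glutamate carrier. Slc25a12 (aralar; chr2:71271063-71367749, minus strand) and Slc25a13 (citrin; chr6:6041218-6217173, minus strand) export aspartate in exchange for glutamate and a proton, an essential step of the malate-aspartate shuttle, and are regulated by calcium. Slc25a12 was 55.0, 56.8, 61.7, 51.1, 64.0, 56.9, 61.0 and 59.6 CPM in the tdTom+ samples of mice 1 to 8, and 16, 23.1, 24.2, 16.9, 24.6, 23.4, 22.9 and 21.6 CPM in their tdTom- samples. Every tdTom+ sample exceeded every tdTom- sample. The log2 fold change was 1.44 ± 0.08 (SE), or 2.71-fold higher (edgeR adjusted p = 6.3e-12).

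Slc25a13 went the other way. Its CPM ran from 24.7 (median 27.9) to 31.7 in tdTom+ samples and from 41.5 (median 45.4) to 50.3 in tdTom- samples, without overlap, a log2 fold change of -0.70 ± 0.06 (edgeR adjusted p = 3.93e-09). Per length, the ratio of Slc25a12 to Slc25a13 was 0.892 ± 0.123 in tdTom+ cells (0.697 to 1.08) and 0.202 ± 0.032 in tdTom- cells (0.157 to 0.245). The paralogs were thus near parity in tdTom+ cells, while Slc25a13 predominated in tdTom- cells. The log2 CPM ratio was higher in tdTom+ cells in all 8 mice, by 1.95 in mouse 6 to 2.34 in mouse 1, with a mean of 2.14 ± 0.12 (SD), a 4.40-fold difference. The 2-sided exact sign-flip permutation test over the 8 mice gave 0.0078, the smallest p it can give, or 0.0123 after Benjamini-Hochberg adjustment over 11 paralog ratios. As the genes moved apart and neither overlapped between fractions, the ratio had to rise in every mouse. This p-value therefore restates the calls of both members. The coding sequences of this pair were 71.5% identical, and the highest identity within the family was 78.1% (Slc25a4 and Slc25a5), so that some reads of the closest members could be divided in counting.

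**Figure D3:**
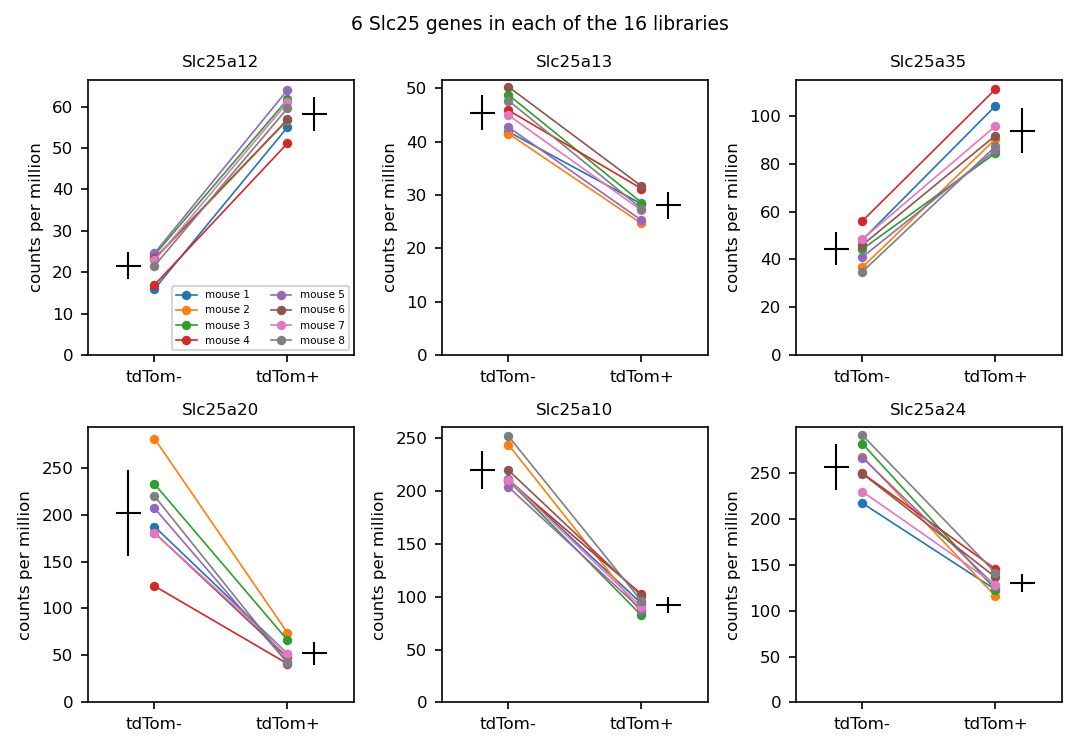
CPM in every library (vertical axis, from 0) of 6 Slc25 genes, with a line joining the tdTom- and tdTom+ sample of each of the 8 mice and black crosses giving mean ± SD. The lines rise in all mice for Slc25a12 and Slc25a35 and fall in all mice for Slc25a13, Slc25a20, Slc25a10 and Slc25a24, and no panel has overlapping groups.

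Among the other amino acid carriers, Slc25a29, a carrier of basic amino acids, was higher by 0.46 ± 0.13 (edgeR adjusted p = 0.0035) in 8 of 8 mice, with overlapping groups, and did not pass without mouse 6 (adjusted p = 0.0108). Nor did it pass in mice 1 to 3 alone (0.45, adjusted p = 0.109) or mice 5 to 8 alone (0.36, adjusted p = 0.0589). Slc25a22, a glutamate carrier, was lower at -0.78 ± 0.09 (adjusted p = 1.76e-07), with 19.8 to 26.3 CPM against 33.4 to 53.1. The other 3 members did not pass, with log2 fold changes of 0.09 for Slc25a44 (branched-chain amino acids), 0.00 for Slc25a38 (glycine) and -0.09 for Slc25a15 (ornithine). The remaining proteins of the malate-aspartate shuttle did not move with Slc25a12. Slc25a11, the oxoglutarate/malate carrier, had a log2 fold change of -0.12 ± 0.04 (edgeR adjusted p = 0.0265), past the threshold by DESeq2 (0.00851). Of 4 shuttle enzymes 3 were lower and 0 higher, against 25.5% of all genes in each direction (0 higher also at an unadjusted p under 0.05 and by DESeq2 and limma-voom), with log2 fold changes of -0.69 for Got1, -0.29 for Got2 and -0.22 for Mdh2, against -0.04 for Mdh1, which did not pass. Got2 and Mdh2 did not pass in mice 1 to 3 alone (edgeR adjusted p = 0.05 and 0.351).

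The carnitine carrier showed the largest decrease. Slc25a20 (chr9:108662088-108684641, plus strand) brings acylcarnitines into the matrix for fatty acid oxidation. It was 51.8, 74.0, 66.4, 41.2, 42.1, 48.0, 51.5 and 42.7 CPM in the tdTom+ samples of mice 1 to 8, and 187, 281, 232, 124, 207, 180, 180 and 220 CPM in their tdTom- samples. The lowest tdTom- sample, of mouse 4, was above the highest tdTom+ sample, of mouse 2. The log2 fold change was -1.95 ± 0.15, or 3.86-fold lower (edgeR adjusted p = 3.33e-10), and the level fell from rank 8 of the family in tdTom- cells to rank 16 in tdTom+ cells.

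Genes that work with Slc25a20 were lower as well. Of 6 tested genes of the carnitine shuttle 5 were lower and 0 higher, where 25.5% of all genes were called in each direction (0 higher also at an unadjusted p under 0.05 and by DESeq2 and limma-voom), with a median log2 fold change of -0.83, against 0.00 over all genes tested. Cpt1a, which makes acylcarnitines at the outer membrane, was at -0.83 ± 0.07, Cpt2, which turns them back into acyl-CoA in the matrix, at -0.93 ± 0.04, and Slc22a5, the plasma membrane carnitine transporter, at -0.83 ± 0.09. Crat, a carnitine acetyltransferase, was at -0.31 ± 0.06. The lowest value was that of Cpt1c (-1.29 ± 0.30), which was weakly expressed, at 0.341 ± 0.176 and 0.855 ± 0.287 CPM. Neither Crat nor Cpt1c passed in mice 1 to 3 alone (edgeR adjusted p = 0.0225 and 0.152). Crot, the peroxisomal enzyme, did not pass (-0.22 ± 0.08, adjusted p = 0.015, and 9.92e-04 with the mouse blocked), and Cpt1b was not tested. Absorptive markers, given above, were lower in the same samples, and their part in these differences was not tested.

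**Figure D4:**
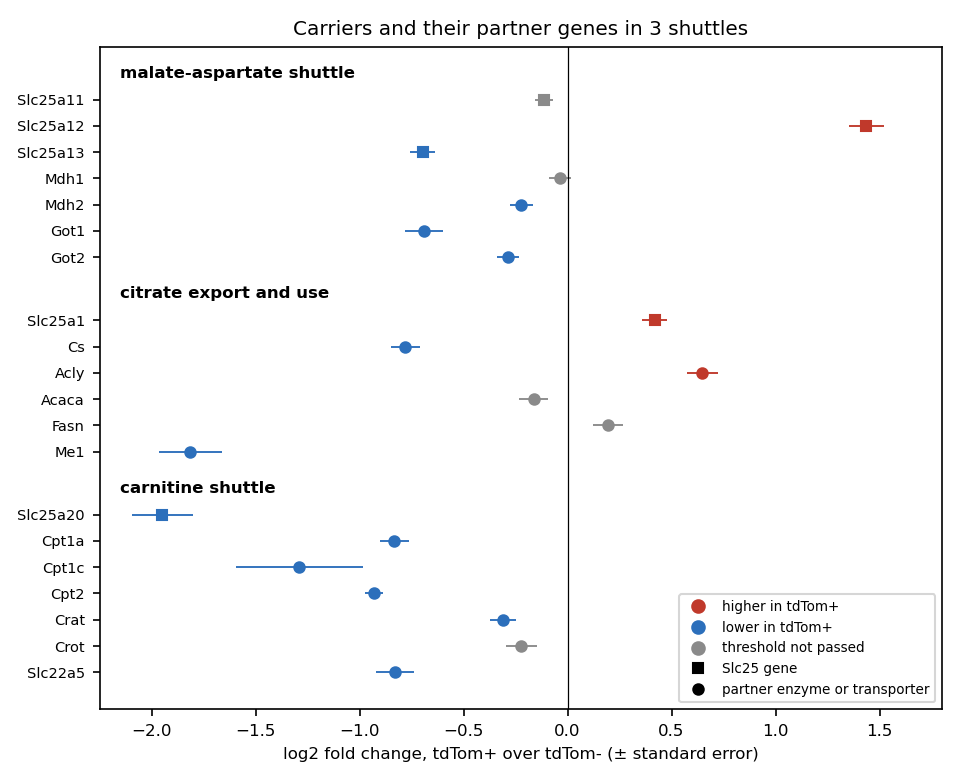
Log2 fold changes (tdTom+ over tdTom-, bars are standard errors) of Slc25 genes (squares) and their partner genes (circles) in the malate-aspartate shuttle, citrate export and the carnitine shuttle. Slc25a12 (1.44) stands apart from its shuttle, Slc25a1 (0.42) and Acly (0.65) are higher while Cs (-0.78) and Me1 (-1.81) are lower, and in the carnitine shuttle every point lies below 0.

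The remaining members of this group carry glutathione and iron. Slc25a37 and Slc25a28, the mitoferrins that import iron for haem and iron-sulphur clusters, were both lower without overlap, at -0.62 ± 0.08 (32.4 to 43.4 against 48.5 to 68.0 CPM; edgeR adjusted p = 9.96e-07) and -0.51 ± 0.08 (12.8 to 17.7 against 19.7 to 26.6 CPM; adjusted p = 7.92e-06). Their ratio did not pass the test, differing by 0.11 ± 0.20 (exact permutation p = 0.211, adjusted 0.232). Of the glutathione importers, Slc25a39 ran from 183 (median 202) to 234 CPM in tdTom+ and from 212 (median 228) to 248 CPM in tdTom- samples. These ranges overlapped and the log2 fold change of -0.15 ± 0.06 did not pass (adjusted p = 0.0293), although it was lower in 8 of 8 mice and passed once a term for the mouse was added as a block (-0.15, edgeR adjusted p = 0.00671). Slc25a39 also passed in mice 5 to 8 alone (-0.22, edgeR adjusted p = 0.0064). Slc25a40 ran from 15.0 (median 20.2) to 21.9 and from 13.6 (median 19.4) to 21.9 CPM, with a log2 fold change of 0.05 ± 0.09 (adjusted p = 0.649). Within mice the Slc25a39 to Slc25a40 ratio was lower in tdTom+ cells in 8 of 8, by -0.21 ± 0.09 (exact permutation p = 0.0078, adjusted 0.0123), from 37.4 ± 7.84 to 32.4 ± 6.54 in TPM. This small shift did not pass when the pairing by mouse was dropped (adjusted p = 0.201).

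Carboxylate carriers split. Slc25a10 (chr11:120491840-120499187, plus strand) exchanges malate and succinate for phosphate. Its CPM was 93.6, 84.8, 82.2, 102, 87.6, 101, 90.3 and 95.9 in the tdTom+ samples of mice 1 to 8, and 211, 244, 210, 210, 204, 220, 211 and 252 in their tdTom- samples. Groups were far apart, with a log2 fold change of -1.25 ± 0.06, or 2.39-fold lower (edgeR adjusted p = 3.56e-13). Slc25a1 (chr16:17925211-17928219, minus strand), which exports citrate for lipid synthesis, ran from 119 (median 134) to 153 CPM in tdTom+ and from 89.2 (median 100.4) to 109 CPM in tdTom- samples. It was thus higher without overlap, by 0.42 ± 0.06 (adjusted p = 3.32e-06), but did not pass in mice 1 to 3 alone (0.39, edgeR adjusted p = 0.0109). Among 5 genes of citrate export and use, Acly, which splits the exported citrate, was higher (0.65 ± 0.08), while Cs, the citrate synthase of the matrix, and Me1, a cytosolic malic enzyme, were lower (-0.78 ± 0.07 and -1.81 ± 0.15). Fasn and Acaca, of fatty acid synthesis, did not pass (0.20 and -0.16), although both passed with the mouse blocked (edgeR adjusted p = 0.00144 and 0.00784).

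Of 6 tested adenine nucleotide, phosphate and ATP-Mg carriers 3 were lower and 0 higher by edgeR, where 25.5% of all genes were called in each direction (0 higher also at an unadjusted p under 0.05 and by DESeq2 and limma-voom). Slc25a5 (chrX:36795651-36798807, plus strand) ran from 818 (median 969) to 1167 CPM in tdTom+ and from 891 (median 1095) to 1186 CPM in tdTom- samples, largely overlapping, at -0.12 ± 0.08 (edgeR adjusted p = 0.195). Its pseudogene Slc25a5-ps took 72 to 247 counts per sample against 15845 to 47978 for the gene, and reads could be divided between them. Slc25a4, the translocase of muscle and heart, did not differ detectably (0.00 ± 0.09, adjusted p = 0.985), and its ratio to Slc25a5 did not pass (0.13 ± 0.23, exact permutation p = 0.141, adjusted 0.172), although it did without mouse 1 (0.19, adjusted p = 0.043). The dominant translocase was thus alike in rank in both fractions, with a difference that did not pass. Slc25a3 (chr10:91116574-91124059, minus strand) ran from 540 (median 584) to 638 CPM in tdTom+ and from 663 (median 742) to 837 CPM in tdTom- samples. It was lower without overlap, by -0.33 ± 0.06 (adjusted p = 5.99e-05), but did not pass in mice 1 to 3 alone (-0.23, edgeR adjusted p = 0.141).

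The ATP-Mg carriers exchange ATP-Mg for phosphate and respond to calcium, and the 3 detected ones changed unequally. Slc25a24 (chr3:109123149-109168457, plus strand) was 116 (median 128) to 145 CPM in tdTom+ samples and 217 (median 258) to 291 CPM in tdTom- samples, without overlap, at -0.98 ± 0.07 (edgeR adjusted p = 6.66e-11). Slc25a25 was 33.9 (median 41.9) to 45.6 and 40.8 (median 51.9) to 73.3 CPM, with overlap, at -0.36 ± 0.10 (adjusted p = 0.00291, and 0.0152 without mouse 5). Slc25a23 was 30.2 (median 35.6) to 37.9 and 28.7 (median 34.2) to 42.5 CPM, at -0.03 ± 0.09 (adjusted p = 0.803). The ratio of Slc25a23 to Slc25a24 rose from 0.09 ± 0.02 to 0.173 ± 0.023 in TPM, a within-mouse log2 difference of 0.96 ± 0.28 in 8 of 8 mice (exact permutation p = 0.0078, adjusted 0.0123). That of Slc25a24 to Slc25a25 fell from 11.3 ± 2.42 to 7.23 ± 1.10 in TPM, a difference of -0.63 ± 0.21 in 8 of 8 mice with the same p-values. Per length, Slc25a24 was the most abundant of the 3 in both fractions (77.8 ± 15.8 and 160 ± 21.8 TPM). The Slc25a23 to Slc25a25 ratio differed by 0.33 ± 0.34 in 7 of 8 mice, the exception being mouse 4 (exact permutation p = 0.0312, adjusted 0.043), and this call was lost on leaving out any mouse but mouse 4, with adjusted p of 0.0573 to 0.0859.

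**Figure D5:**
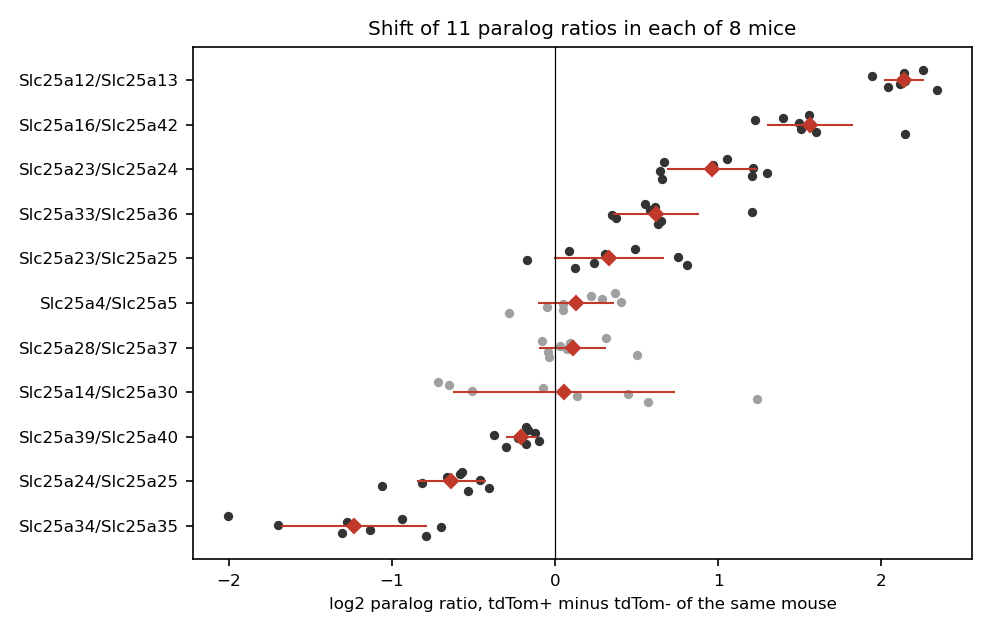
Within-mouse difference in log2 CPM ratio (tdTom+ minus tdTom-) of 11 paralog pairs, with 1 dot per mouse (dark where the exact test passed, light where it did not) and red diamonds giving mean ± SD over 8 mice. Slc25a12/Slc25a13 has the largest shift (2.14) with all mice close together, and Slc25a14/Slc25a30 (0.06) scatters on both sides of 0.

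Carriers of cofactors and other nucleotides divided into 3 higher, 2 lower and 4 that did not pass, close to the 51.0% of all genes called. Slc25a16 and Slc25a42 have both been linked to coenzyme A in mitochondria, and they moved apart. Slc25a16 was 46.7 (median 53.4) to 57.4 CPM in tdTom+ and 26.8 (median 30.5) to 34.2 CPM in tdTom- samples (0.79 ± 0.06, edgeR adjusted p = 4.95e-10). Slc25a42 was 10.6 (median 12.6) to 14.9 and 17.9 (median 22) to 24.0 CPM (-0.77 ± 0.08, adjusted p = 3.62e-08). Neither gene's groups overlapped. Their ratio rose from 1.79 ± 0.26 to 5.30 ± 0.66 in TPM, by 1.56 ± 0.26 on the log2 CPM scale in 8 of 8 mice (exact permutation p = 0.0078, adjusted 0.0123). Without overlap in either gene the ratio had to rise in every mouse, so this test restates the calls of both members.

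Slc25a32, the folate and FAD carrier, was 14.7 to 20.7 CPM in tdTom+ and 8.53 to 12.5 CPM in tdTom- samples, higher without overlap by 0.71 ± 0.08 (edgeR adjusted p = 2.31e-07). The pyrimidine nucleotide carriers Slc25a33 and Slc25a36 differed in behaviour. Slc25a33 was 9.73 (median 12.7) to 18.3 and 6.04 (median 9.11) to 12.3 CPM, with overlap, higher by 0.49 ± 0.15 in 8 of 8 mice (adjusted p = 0.0066), a call lost without mouse 1, 6, 7 or 8 (adjusted p of 0.0138 to 0.0171). Slc25a36 was 58.0 (median 62.8) to 67.6 and 61.1 (median 66.8) to 85.0 CPM, at -0.14 ± 0.06 (adjusted p = 0.0521). Their ratio rose by 0.62 ± 0.26 in 8 of 8 mice (exact permutation p = 0.0078, adjusted 0.0123), from 0.718 ± 0.195 to 1.09 ± 0.27 in TPM. Slc25a51, the NAD+ carrier, was lower without overlap at -0.35 ± 0.05 (71.4 to 86.1 against 94.3 to 105 CPM, adjusted p = 1.7e-06), and 125 bases of its exons are shared with Gm25692 on the same strand. Slc25a17 (peroxisomal) and Slc25a26 (S-adenosylmethionine) did not pass, with log2 fold changes of -0.07 and -0.03.

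Of the members whose solutes are unknown or were assigned late, Slc25a35 (chr11:68968131-68974365, plus strand) rose most. It was 104, 90.3, 84.4, 111, 85.7, 91.8, 95.8 and 87.2 CPM in the tdTom+ samples of mice 1 to 8, and 48.2, 36.8, 44.4, 56.1, 41.0, 46.1, 48.5 and 34.9 CPM in their tdTom- samples. All tdTom+ samples were above all tdTom- samples, at 1.07 ± 0.09, or 2.10-fold higher (edgeR adjusted p = 9.57e-10). Its paralog Slc25a34 was 24.9 (median 27.9) to 38.3 and 27.6 (median 31.2) to 41.1 CPM, at -0.14 ± 0.11 (adjusted p = 0.268). It passed in mice 5 to 8 alone (-0.40, adjusted p = 0.00605) and was at 0.05 in mice 1 to 3 (adjusted p = 0.838). The Slc25a34 to Slc25a35 ratio fell from 1.07 ± 0.34 to 0.441 ± 0.064 in TPM, a difference of -1.23 ± 0.45 in 8 of 8 mice (exact permutation p = 0.0078, adjusted 0.0123). Slc25a47, best known from liver, was higher by 0.70 ± 0.15 (adjusted p = 4.9e-04) and Slc25a45 lower at -0.89 ± 0.21 (adjusted p = 0.00106), both at low levels with overlapping groups (2.87 to 4.56 against 1.46 to 2.99 CPM, and 0.418 to 1.69 against 1.57 to 3.07 CPM). Slc25a45 did not pass in mice 1 to 3 alone (-0.61, edgeR adjusted p = 0.133) or in mice 5 to 8 alone (-0.87, adjusted p = 0.0308). Slc25a47 did not pass in mice 1 to 3 alone (0.92, adjusted p = 0.0232). Slc25a47 lies 15245 bases from Slc25a29 on chromosome 12, and both were higher in all mice together. Slc25a53 (0.40, adjusted p = 0.0162) and Slc25a48 (0.16) did not pass, the former passing without mouse 8 (0.47, adjusted p = 0.00735).

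The uncoupling protein-like carriers were expressed weakly. Slc25a27 was lower at -0.69 ± 0.20 (edgeR adjusted p = 0.00596), with 0.868 to 1.53 CPM against 1.00 to 3.35 CPM and overlapping groups. This call was lost under limma-voom (adjusted p = 0.013) and on leaving out any of mice 1, 2, 3, 4, 5 or 7 (adjusted p of 0.0102 to 0.0265). It was at -1.05 in mice 1 to 3 (adjusted p = 0.0193) and -0.33 in mice 5 to 8 (adjusted p = 0.329). Slc25a14 and Slc25a30 did not pass (0.13 and 0.06), nor did their ratio (0.06 ± 0.68, exact permutation p = 0.859, adjusted 0.859). Slc25a46, which sits in the outer membrane and shapes mitochondrial fusion and cristae, was at 0.02 ± 0.05 (adjusted p = 0.801).

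Relatives and partners of the family gave a mixed picture. Of 3 tested relatives outside the symbol rule, Mtch1 was higher (0.53 ± 0.05) and its paralog Mtch2 lower (-0.96 ± 0.08), both carrier-like proteins of the outer membrane, and Ucp2 was slightly higher (0.17 ± 0.05, adjusted p = 0.00934), a call lost on leaving out any mouse but 2 or 4 (adjusted p of 0.0122 to 0.0272). Of 14 other gates of mitochondria 2 were higher and 5 lower, about the 51.0% called of all genes, from Sfxn2 (0.53) to Sfxn3 (-1.08), both sideroflexins, with the outer membrane channel Vdac3 at -1.02. Of 13 genes that import carriers into the inner membrane 3 were higher and 2 lower, below that share, from Timm10b (0.71) to Tomm40 (-0.41). The other lower gene, Tomm70a (-0.21 ± 0.06), did not pass without a filter (adjusted p = 0.0148) or on leaving out any mouse but 2 or 3 (adjusted p of 0.0103 to 0.029). By edgeR 0 of the 13 mitochondrially encoded proteins passed, as by DESeq2 and limma-voom, while 1 was lower at an unadjusted p under 0.05, with a median of -0.20 and values from -0.63 (mt-Co1, adjusted p = 0.0238) to 0.14 (mt-Nd3). Their levels varied widely between mice, and with the mouse blocked 5 of the 13 were lower and 0 higher, where that fit called 28.9% of all genes lower and 28.4% higher, at -0.66 for mt-Co1, -0.40 for mt-Atp6, -0.39 for mt-Co2, -0.34 for mt-Co3 and -0.19 for mt-Nd5 (edgeR adjusted p of 1.17e-06 to 0.00737).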

How the data were processed

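The authors sorted EpCAM+ tdTom+ and tdTom- cells, made stranded mRNA libraries (TruSeq) and sequenced single-end reads. Per the file headers and the submitters' processing notes, reads were aligned to GRCm38 with TopHat2 2.1.1 and the deposited counts are reads per gene over exons from featureCounts (version 1.5.0-p1 in the headers, Subread 1.5.2 in the notes), primary alignments on the reverse strand, without normalization. The notes also name DESeq2 1.14.1. The deposited counts were used as they stand.

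Gene symbols came from the annotation of GRCm38 and covered 44585 of 45513 genes. Groups came from the labels. The same mouse number in both fractions marks the same animal, and deviations from the group means correlated within mice (lowest 0.223, mean 0.303). Between different mice the mean was -0.04. Centring on the group means pulls this value below 0, so it cannot show that mice were unrelated. Main tests used edgeR 4.0.16 in R 4.3.3 (filterByExpr, TMM, glmQLFit, glmQLFTest) without a mouse term, with Benjamini-Hochberg adjusted p under 0.01. P-values of this fit measure the spread between 8 mice per fraction and take no account of the pairing of libraries. Those of the paralog ratios rest on differences within the 8 mice. CPM values use TMM library sizes, and log2 CPM a prior count of 2. TPM used the exon lengths in the headers. Paralog ratios were compared within mice by a 2-sided exact sign-flip permutation test at an adjusted p of 0.05. Of 13 pairs 11 were tested, those of Slc25a22 with Slc25a18 and Slc25a15 with Slc25a2 lacking a tested partner. Coding identity was calculated between annotated transcripts, and the promoters are RefSeq entries. The values of 1 tested member are not reported here. A planned search for a protein signature was not run. Alternatives were the mouse as a block, DESeq2 1.42.0, limma-voom (limma 3.58.1), RLE and upper-quartile normalization, other count filters, an adjusted p of 0.05, each mouse left out, and mice 1 to 3 or 5 to 8 alone. For ratios they also included a prior count of 0.5 and no pairing, and for levels reads per kilobase.

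Members and lists were chosen with earlier results of these data known. Full values are given for called members with an absolute log2 fold change of at least 1, for both members of each paralog pair that passed and for the 5 members with the highest mean TPM, and other members by range, log2 fold change or count. From each list the extremes past the threshold and genes counted singly are named. The script of the fits was tested on simulated data. At depths of 16482530 to 45791503 counts, 3 counts correspond to 0.0655 to 0.182 CPM, which covers counting error only. This range uses raw totals, without the TMM factors behind the other CPM values. Summaries were computed in Python 3.11.15 (scipy 1.17.1, pandas 2.3.3, numpy 2.4.6).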

Additional observations from a re-analysis of the deposited data

Results flagged for a closer look

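In 3 of 80 groups of 8 samples (40 members in each fraction) 1 sample lay far from the others on the log2 CPM scale by Dixon's criterion, against 4 expected by chance at 1 group in 20. Slc25a25 was at 5.09 in the tdTom+ sample of mouse 8, Slc25a26 at 2.20 in the tdTom- sample of mouse 6 and Slc25a32 at 3.11 in the tdTom- sample of mouse 1, each below the other 7 samples of its group. The calls of Slc25a25 and Slc25a32 held without the mouse concerned, and Slc25a26 did not pass with or without it.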

How the results depend on the processing

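All 21 member calls held their direction under every alternative run in which they were tested, and the 4 called members with a log2 fold change of at least 1 kept their call. With the mouse as a replicate block there were 8 higher and 14 lower members, Slc25a39 being added, and no other member's call changed. In the partner lists the block gave 9 higher and 25 lower genes, adding 8 calls named above (5 of them mitochondrially encoded) and removing none. Calls were lost by limma-voom (1, Slc25a27) and by leaving out 1 mouse (1 or 2 at a time, named above). Those lost in mice 1 to 3 (9 of 21) were Slc25a1, Slc25a3, Slc25a25, Slc25a27, Slc25a29, Slc25a33, Slc25a45, Slc25a47 and Slc25a51. Those lost in mice 5 to 8 (3 of 21) were Slc25a27, Slc25a29 and Slc25a45. Among mice 1 to 3 alone 4 members were higher and 8 lower, and of the genes in the partner lists 5 were higher and 10 lower, against 8 and 18 in all mice, a subset with fewer samples. Over all genes that subset gave 5105 calls, against 8074 in all mice. Slc25a34 and Slc25a39 passed in mice 5 to 8 alone (-0.40 and -0.22) and not in all mice (-0.14 and -0.15). Some members that did not pass changed sign, and the cause was not tested. Slc25a4 was at -0.0024 by limma-voom, -0.0031 with a minimum of 10 counts, -0.011 by upper quartile, -0.0495 in mice 1 to 3 and -0.0107 to 0.0474 with 1 mouse left out. Slc25a38 was at -0.0004 with the replicate block, -0.0049 with a minimum of 10 counts, -0.0108 by upper quartile, -0.0986 in mice 5 to 8 and -0.0137 to 0.0401 with 1 mouse left out. In mice 1 to 3 Slc25a5 was at 0.0388, Slc25a17 at 0.0426, Slc25a30 at -0.10, Slc25a34 at 0.0483, Slc25a44 at -0.0985 and Slc25a46 at -0.0537. In mice 5 to 8 Slc25a14 was at -0.21, Slc25a15 at 0.0084, Slc25a23 at 0.0136, Slc25a26 at 0.0503 and Slc25a40 at -0.0053. With 1 mouse left out Slc25a23 ran from -0.0458 to 0.0124, Slc25a26 from -0.0622 to 0.0333 and Slc25a46 from -0.0032 to 0.0518.

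Of the paralog ratios, Slc25a39/Slc25a40 did not pass with no replicate block (-0.21, adjusted p = 0.201). With 1 mouse left out Slc25a4/Slc25a5 ran from 0.093 to 0.19 (past the threshold without mouse 1), Slc25a23/Slc25a25 from 0.26 to 0.40 (past it only without mouse 4) and Slc25a14/Slc25a30 from -0.11 to 0.17. The ratio of family sums was 0.869 with TMM library sizes against 0.825 in TPM. Members near 1 CPM, such as Slc25a27 and Slc25a45, have the widest errors at this depth.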
